A study of Mus musculus with 4 samples.

Results

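CD34, podocalyxin, endoglycan, CD164 and endomucin are sialomucins, cell surface proteins whose long extracellular stalks carry dense O-linked, sialic acid-capped sugars. The leukocyte adhesion molecules set beside them are P-selectin, E-selectin, ICAM-1 and VCAM-1. The set of 9 genes (Cd34, Podxl, Podxl2, Cd164, Emcn, Selp, Sele, Icam1 and Vcam1) was taken from 18193 genes that the arrays read. The genes were listed by name for their roles and were also chosen by their levels on these same arrays, among which the high Cd34 level was already known. The values below are therefore descriptions and no test is attached to them. The 9 genes were read by 15 probe sets with a single gene symbol. Each gene is represented by its probe set of highest mean level, and the others are given beside it.

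The cells were SVEC4-10, a mouse endothelial line derived from lymph node vessels and immortalised with SV40. Of the 4 arrays, the first held cells transduced with a pLENTI6/Block-iT lentiviral vector expressing a short hairpin RNA against Mical2, and the second held cells with the same vector expressing a hairpin against Mical3. The third held cells with the insert-free vector and the fourth untreated cells that received no vector. Transduced cells were selected with blasticidin, which the untreated cells were not said to have received. MICAL2 is a redox enzyme that modifies filamentous actin, and MICAL3 is its relative. Every array carried a pool of RNA from 3 biological replicates, so there is 1 array per group, the spread between replicates is not seen, and no p-value can be given. Precision is limited by that number of arrays.

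In vessels, these proteins act at successive steps of leukocyte exit from blood. Selectins catch flowing leukocytes by binding sialylated and fucosylated sugars, some of which sit on sialomucins of the CD34 family in lymph node venules. ICAM-1 and VCAM-1 then hold the cell through leukocyte integrins. CD34-family proteins can also act against adhesion, because their charged stalks keep membranes apart, and their tails bind the actin-linking ERM proteins through NHERF adaptors. P-selectin is made by platelets and endothelium and is kept in storage granules until release. E-selectin, ICAM-1 and VCAM-1 are classic targets of NF-kB in activated endothelium.

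Only some of the set could be read. A level is the deposited log2 value, and 5.41, the median of the whole table, served as a floor. Of the 9 genes, 4 (Podxl, Cd164, Selp and Vcam1) lay at or above it on all 4 arrays, Cd34 reached it on 1 array, and 4 (Podxl2, Emcn, Sele and Icam1) lay below it on all 4. A gene was called higher or lower when its log2 level differed by at least 1 (2-fold), with the highest of the compared levels at the floor or above. For a hairpin array this had to hold in the same direction from the empty-vector array and from the untreated array. Background correction compresses differences near the floor.

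The labels of the hairpin arrays were checked by the targeted transcripts. The probe sets of Mical2 read 5.53 and 5.53 on the Mical2-labelled array, 6.0 and 6.08 on the Mical3-labelled array, 4.64 and 5.14 on the empty-vector array and 5.33 and 5.60 in untreated cells. Mical3 read 6.83, 7.24, 7.29 and 7.39 in that order. Neither targeted transcript was called lower where its own hairpin was expressed. Mical2 lay near or below the floor on both control arrays, where differences are compressed and a decrease can hardly be called. For Mical2 the check therefore says little about the knock-down. Mical3 lay above the floor on all 4 arrays, so its level could be compared. On the array of its own hairpin it read 7.24, close to the 7.29 and 7.39 of the controls. Its lowest level, 6.83, was on the Mical2-labelled array. No knock-down of the Mical3 transcript was thus seen by its probe set. The hairpin arrays are named by their labels only. Correlations between arrays across all probe sets ran from 0.978 to 0.990. Endothelial identity was checked too. Of 14 endothelial markers, 8 lay below the floor on every array, among them Pecam1 (3.85, 3.51, 3.88 and 3.46 on the Mical2-labelled, Mical3-labelled, empty-vector and untreated arrays), the VE-cadherin gene Cdh5 (4.36, 4.32, 3.95 and 4.5) and Vwf (3.98, 3.87, 3.98 and 3.83), while Flt1, Eng, Egfl7, Kdr and Esam lay at or above it on all 4.

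**Figure D1:**
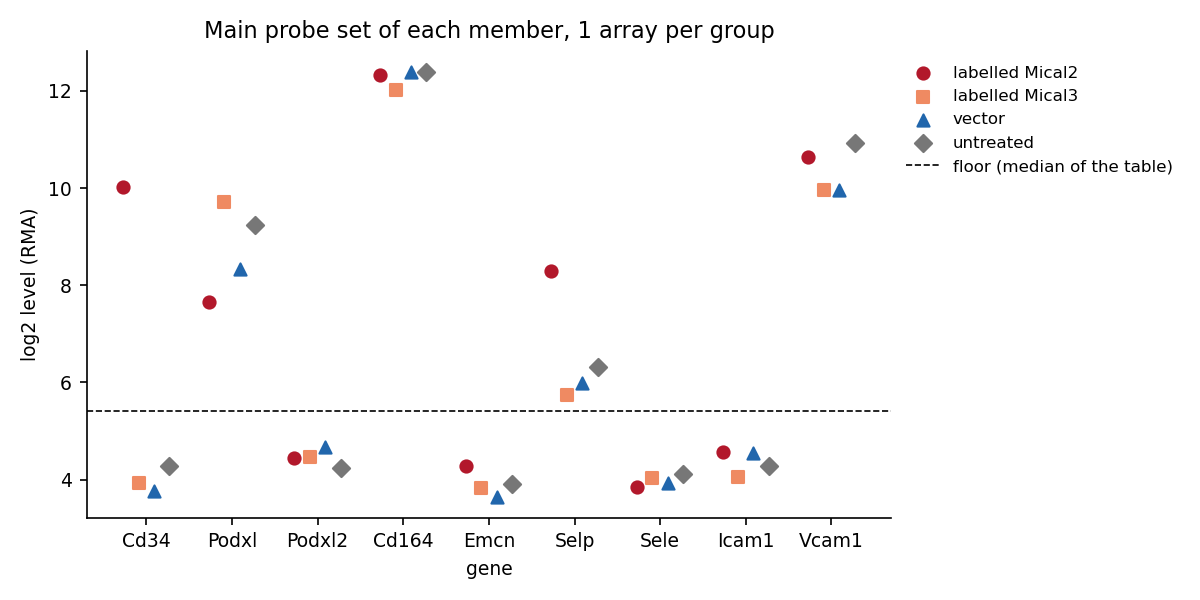
Log2 level (y axis) of the main probe set of each of the 9 genes (x axis) on the 4 arrays, 1 point per array, with the floor of 5.41 as a dashed line. Cd34 reaches 10.02 on the Mical2-labelled array and stays below the floor on the other arrays, Selp is also highest there at 8.30, and Podxl is lowest there at 7.66.

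Promoter sequences are shown for 4 genes, because Cd34 and Selp were both highest on the Mical2-labelled array, while Sele, which lies next to Selp, and Icam1 stayed below the floor. They are RefSeq sequences of build GRCm38.p6, on the plus strand, written 5′ to 3′, from 250 bases before to 50 bases after the annotated start. Capitals mark matches, on either strand, to the letters of a GATA motif (AGATAA or AGATAG or TGATAA or TGATAG), an ETS motif (AGGAAG or CGGAAG), an AP-1 motif (TGANTCA) or a gamma-activated sequence (TTCNNNGAA). The kappaB and CArG consensus motifs were searched as well. The Cd34 window lies at chr1:194938571-194938870, that of Selp at chr1:164115014-164115313, that of Sele at chr1:164047984-164048283 and that of Icam1 at chr9:21015690-21015989.
Cd34: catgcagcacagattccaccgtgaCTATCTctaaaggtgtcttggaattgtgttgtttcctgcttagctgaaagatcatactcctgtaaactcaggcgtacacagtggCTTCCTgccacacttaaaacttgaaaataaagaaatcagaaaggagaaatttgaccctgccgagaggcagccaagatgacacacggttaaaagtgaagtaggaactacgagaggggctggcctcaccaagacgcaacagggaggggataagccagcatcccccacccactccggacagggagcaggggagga
Selp: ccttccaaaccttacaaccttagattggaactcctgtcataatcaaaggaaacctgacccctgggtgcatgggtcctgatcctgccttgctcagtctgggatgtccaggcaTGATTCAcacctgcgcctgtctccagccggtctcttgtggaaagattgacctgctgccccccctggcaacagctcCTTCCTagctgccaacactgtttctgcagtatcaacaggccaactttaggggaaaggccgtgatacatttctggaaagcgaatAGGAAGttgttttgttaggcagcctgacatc
Sele: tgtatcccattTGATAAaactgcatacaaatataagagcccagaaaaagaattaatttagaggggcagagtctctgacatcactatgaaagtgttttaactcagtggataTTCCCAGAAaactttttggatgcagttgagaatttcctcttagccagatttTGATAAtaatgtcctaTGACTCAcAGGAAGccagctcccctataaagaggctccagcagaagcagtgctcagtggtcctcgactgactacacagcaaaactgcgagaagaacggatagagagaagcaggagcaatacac
Icam1: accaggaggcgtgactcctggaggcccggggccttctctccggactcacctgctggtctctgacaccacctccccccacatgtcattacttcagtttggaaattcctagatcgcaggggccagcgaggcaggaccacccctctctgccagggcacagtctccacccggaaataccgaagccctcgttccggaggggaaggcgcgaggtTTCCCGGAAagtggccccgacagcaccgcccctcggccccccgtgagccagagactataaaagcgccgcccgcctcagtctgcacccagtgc

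In these letters Cd34 had a GATA match at -226 and an ETS match at -142, counted from the annotated start. Selp had an AP-1 match at -139 and ETS matches at -64 and 20. Sele held GATA matches at -239 and -89, a gamma-activated sequence at -140, an AP-1 match at -73 and an ETS match at -65, and Icam1 held a gamma-activated sequence at -42. Such letters are common. Of 32851 RefSeq promoter windows, 46.5% held an ETS match, 29.8% a GATA match, 7.81% an AP-1 match, 8.30% a gamma-activated sequence, 8.46% a kappaB match and 1.63% a CArG match. The motif that Cd34 and Selp share is the ETS motif. It also occurred in Sele, whose level was below the floor, in the windows of Cd164 and Emcn and in 1 of the 3 windows of Podxl2, whose other 2 held kappaB matches. Matches are a description of the sequence and no sign of binding, and a missing match says only that these letters are not in the window.

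Cd34, the sialomucin that marks vessel lining and blood progenitors and also some stromal cells, was read at 10.02 on the Mical2-labelled array, 3.93 on the Mical3-labelled array, 3.76 on the empty-vector array and 4.29 in untreated cells. It was thus high on 1 array and below the floor on the other 3, among which no order can be read. Because it reached the floor on that array alone, Cd34 could enter the comparison only by being high there. The log2 difference of the Mical2-labelled array was 6.26 from the empty-vector array, 5.73 from the untreated array and 6.09 from the Mical3-labelled array. Set against the floor itself, the level was at least 24.4-fold higher. It has 1 probe set on this array type, so no second reading of the transcript exists here. In bulk RNA, a few cells with much Cd34 and many cells with little cannot be told apart.

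Podxl encodes podocalyxin, the CD34 relative that shapes the apical surface of endothelium and of kidney podocytes. Its main probe set read 7.66 on the Mical2-labelled array, 9.72 on the Mical3-labelled array, 8.33 on the empty-vector array and 9.24 in untreated cells. It ran opposite to Cd34 between the hairpin arrays, with a log2 difference of -2.06 between the Mical2-labelled array and the Mical3-labelled array. Against the controls neither hairpin array passed the rule. The Mical2-labelled array differed by -0.67 from the empty-vector array and by -1.58 from the untreated array, and the Mical3-labelled array by 1.39 and 0.48.

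The second Podxl probe set lay near the floor, at 5.62 on the Mical2-labelled array, 6.21 on the Mical3-labelled array, 5.34 on the empty-vector array and 5.54 in untreated cells. It too was highest on the Mical3-labelled array. It did not show the low level on the Mical2-labelled array, which stood 0.28 above the empty-vector array and 0.08 above the untreated array. The direction between the Mical2-labelled array and the controls thus rests on 1 of the 2 probe sets.

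Of the other sialomucins, only Cd164 could be compared. Cd164, a broadly expressed sialomucin of cell surface and endosomes, read 12.32 on the Mical2-labelled array, 12.02 on the Mical3-labelled array and 12.39 on each control array. Its range of 0.37 was close to the disagreement among probe sets that read 1 gene, for which the standard deviation of a difference was between 0.24 and 0.36. Its second probe set was below the floor throughout, from 3.38 to 3.68. Podxl2, encoding endoglycan, read 4.44, 4.46, 4.67 and 4.23 in the same order of arrays as above. Emcn, encoding endomucin of veins and capillaries, read 4.29, 3.82, 3.65 and 3.90. Both were below the floor on every array, so no change of theirs could be read.

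Selp, encoding P-selectin, was the second gene called higher on the Mical2-labelled array. Its main probe set read 8.30 there, 5.75 on the Mical3-labelled array, 5.98 on the empty-vector array and 6.32 in untreated cells. The log2 differences of the Mical2-labelled array were 2.32 from the empty-vector array, 1.98 from the untreated array and 2.55 from the Mical3-labelled array, the first of which is a 4.99-fold difference in level.

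All 3 probe sets of Selp were highest on the Mical2-labelled array and next highest on the untreated array. The second read 6.4 on the Mical2-labelled array, 5.37 on the Mical3-labelled array, 5.16 on the empty-vector array and 5.99 in untreated cells, and the dimmest, which is open to cross-hybridisation and lay below the floor, read 5.06, 3.71, 3.54 and 4.18. Their differences of the Mical2-labelled array from the untreated array were 0.41 and 0.88, smaller than that of the main probe set. They were 1.24 and 1.52 from the empty-vector array. The first 2 probe sets carry the same accession in the annotation and are not independent of each other.

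**Figure D2:**
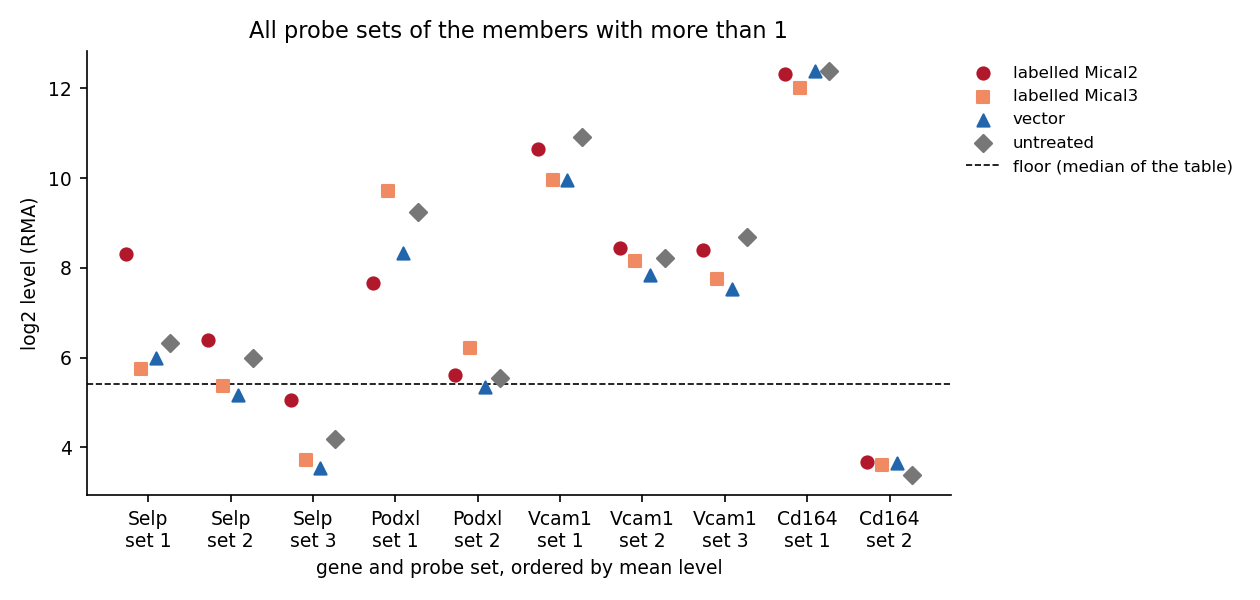
Log2 level (y axis) of every probe set of Selp, Podxl, Vcam1 and Cd164 (x axis, ordered by mean within a gene) on the 4 arrays, 1 point per array, with the floor dashed. All 3 Selp probe sets are highest on the Mical2-labelled array, whereas only the main Podxl probe set is lowest there.

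Sele, the gene of E-selectin, stayed below the floor although it neighbours Selp. It read 3.85 on the Mical2-labelled array, 4.03 on the Mical3-labelled array, 3.93 on the empty-vector array and 4.12 in untreated cells. Icam1 read 4.57, 4.06, 4.54 and 4.27 in that order by its single probe set. ICAM-1 is the ligand of the leukocyte integrins LFA-1 and Mac-1. Neither of these NF-kB targets was read above the floor on any array.

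Vcam1, which binds the leukocyte integrin alpha4 beta1, was the adhesion gene well above the floor everywhere. It read 10.64 on the Mical2-labelled array, 9.97 on the Mical3-labelled array, 9.97 on the empty-vector array and 10.92 in untreated cells. By this probe set the arrays split into a higher pair, labelled Mical2 and untreated, and a lower pair, labelled Mical3 and vector. The log2 difference from the untreated array was -0.95 for the Mical3-labelled array and -0.95 for the empty-vector array, just short of a call. Of its other 2 probe sets, the dimmer read 8.39, 7.75, 7.52 and 8.69 in the same order and split the arrays likewise, with -1.17 between the vector and untreated arrays. The brighter read 8.44, 8.16, 7.85 and 8.22 and was lowest on the empty-vector array too. It did not split the arrays likewise, with -0.06 between the Mical3-labelled and untreated arrays.

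Counted over the set, 2 of the 9 genes (Cd34 and Selp) were called higher on the Mical2-labelled array against both controls, and none lower. Across all genes, 0.977% of 12072 were called higher and 1.75% lower in that comparison. None of the 9 was called on the Mical3-labelled array, where 1.38% of 12011 genes were called higher and 2.49% lower. None was called between the vector and untreated arrays, where 3.26% of 11849 genes were higher and 2.57% lower. Between the Mical2-labelled array and the Mical3-labelled array, Cd34 and Selp were called higher and Podxl lower, against 3.81% and 3.72% of 11928 genes. Because the genes were chosen with these levels known, nothing is read from those shares. No median over the set is given, because 4 of the 9 genes lay below the floor. Over the 12166 genes at the floor on 1 array or more, the median difference ran from -0.04 to 0.03 over the pairs of arrays. The comparisons of the hairpin arrays share their control arrays.

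**Figure D3:**
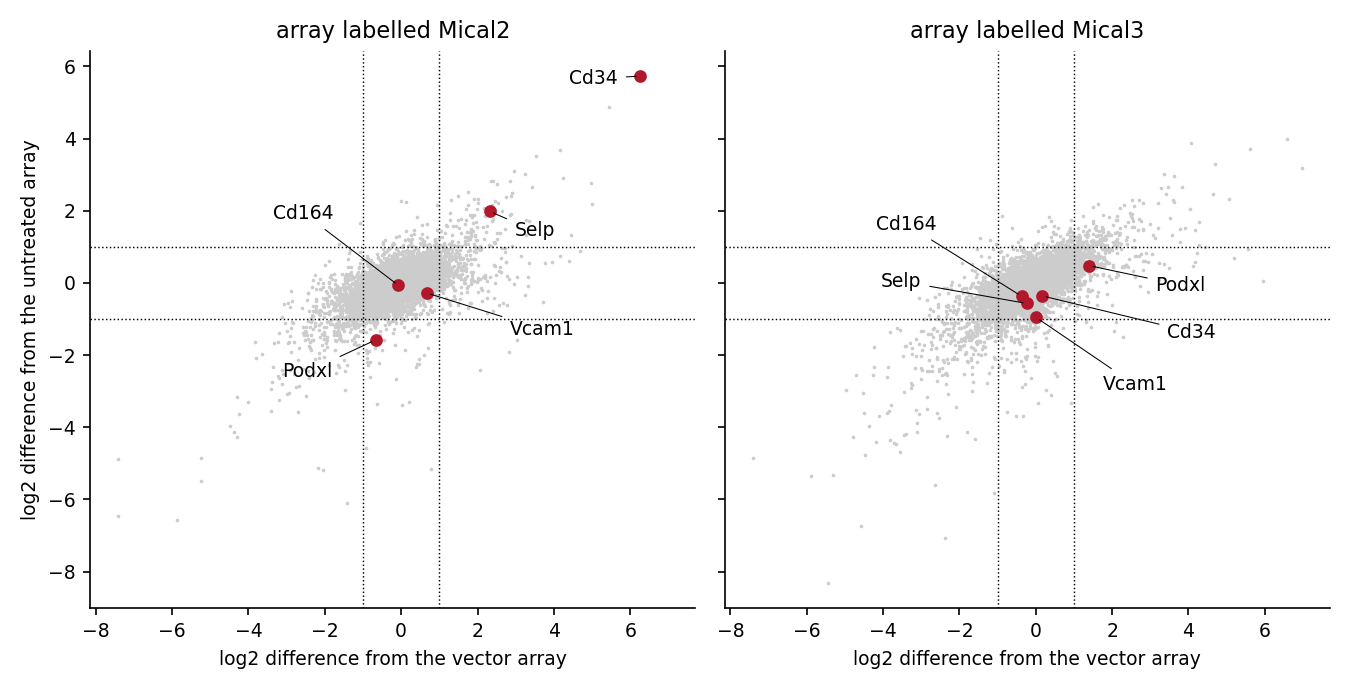
Log2 difference from the empty-vector array (x axis) against log2 difference from the untreated array (y axis), for the Mical2-labelled array (left) and the Mical3-labelled array (right). Grey points are genes that reach the floor on 1 array or more, red points are the 5 genes of the set among them, and dotted lines mark a difference of 1. Cd34 (6.26 and 5.73) and Selp (2.32 and 1.98) lie in the upper right corner on the left, and none of the 5 passes both lines on the right.

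The nearest 2 measured genes on each side of Cd34 and of Selp were not called against both controls on the Mical2-labelled array. Cd34, on chromosome 1, has Plxna2 before it in the order of measured genes, which read 7.46 on the Mical2-labelled array, 6.41 on the Mical3-labelled array, 6.95 on the empty-vector array and 7.10 in untreated cells, an order its other 3 probe sets, highest on the empty-vector array, did not share. Against the Mical3-labelled array, Plxna2 was called higher on the Mical2-labelled array, by 1.05 and by 1.30 and 1.27 in 2 further probe sets. After it come A330023F24Rik, below the floor throughout, and the complement regulator gene Cd46 (5.60, 5.59, 5.52 and 5.14). Selp, also on chromosome 1, lies between Sele and F5, the gene of coagulation factor V, which read 4.08, 3.87, 3.79 and 4.02, and Slc19a2, a thiamine transporter gene, follows (9.58, 8.99, 9.15 and 8.85). By main probe set, Plxna2, Cd46 and Slc19a2 were highest on the Mical2-labelled array, by less than 1 from either control. Cd46 differed there by only 0.01 from the Mical3-labelled array. Mettl18, before Sele, was highest on the empty-vector array (7.67, 7.46, 7.84 and 7.59 in the same order of arrays). Sele and F5 lay below the floor throughout, so no order of theirs can be read. Podxl, on chromosome 6, follows Mkln1 (8.82, 9.61, 9.47 and 9.18), which was also lowest on the Mical2-labelled array. Plxna4, on its other side, was highest there (6.99, 6.91, 6.51 and 6.78). Over the nearest 2 measured genes on each side of all 9 genes, 32 other genes in all, 1 was called higher on the Mical2-labelled array against both controls, beside 0.977% of all genes. This was Mgll, the monoacylglycerol lipase gene near Podxl2, at 8.62 on the Mical2-labelled array, 7.76 on the Mical3-labelled array, 5.31 on the empty-vector array and 7.11 in untreated cells. None was called on the Mical3-labelled array. Between the empty-vector and untreated arrays Mgll was called lower and Icam4 higher, beside 2.57% and 3.26% of all genes. Between the hairpin arrays Plxna2 was called higher and Cdc14a (5.74 on the Mical2-labelled against 6.79 on the Mical3-labelled array) lower, beside 3.81% and 3.72% of all genes.

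**Figure D4:**
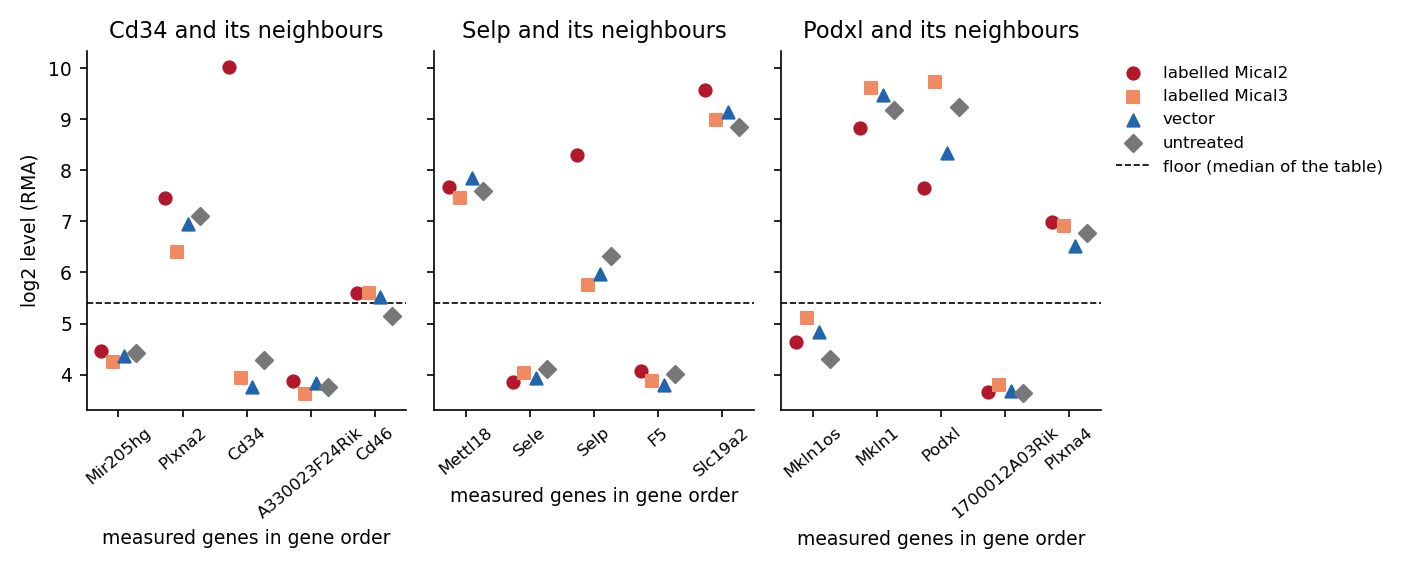
Log2 level (y axis) of Cd34, Selp and Podxl and of the 2 nearest measured genes on each side, in gene order (x axis, not to scale), on the 4 arrays, with the floor dashed. The genes shown beside Cd34 and Selp differ by less than 1 between the Mical2-labelled array and either control.

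Profiles most like those of the 3 genes that spanned at least 2 on the log2 scale were found by the Euclidean distance between levels centred on their own mean, over the 4 arrays. Nearest to Cd34 were the lipase gene Lipo3 (distance 0.76), the bile acid receptor gene Nr1h4 (2.28) and the glutathione transferase gene Gsta3 (2.39). These distances include levels below the floor. Lipo3 read 8.90 on the Mical2-labelled array, 3.75 on the Mical3-labelled array, 3.46 on the empty-vector array and 4.02 in untreated cells. Nearest to Selp were Col6a3, a chain of type VI collagen (0.17), Glipr1 (0.24) and Ang2, an angiogenin-family ribonuclease (0.25). Col6a3 read 7.32, 4.85, 4.85 and 5.29 in the same order. Nearest to Podxl were Slc25a13 (0.38), the mitochondrial aspartate and glutamate carrier gene, Nme4 (0.39), a mitochondrial nucleoside diphosphate kinase gene, and Ccnd2, encoding cyclin D2 (0.40). Ccnd2 read 11.33, 13.08, 11.71 and 12.34. With 4 arrays, such likeness says only that the levels run in parallel.

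Adaptors that tie sialomucin tails to actin were read well. The list was written with earlier results of these data known, as were the lists below, and 9 of its 10 genes were measured. None was called on the Mical2-labelled array, where 0.977% of all genes were called higher and 1.75% lower. On the Mical3-labelled array 1 was called higher, beside 1.38% of all genes. This was Slc9a3r2, encoding NHERF2, at 7.49 on the Mical2-labelled array, 9.19 on the Mical3-labelled array, 8.12 on the empty-vector array and 8.10 in untreated cells, the same order at its ends as Podxl. Its 6 probe sets were all highest on the Mical3-labelled array, with differences from the controls under 1 in the other 5. Ezr, encoding the ERM protein ezrin, read 12.62, 13.44, 11.67 and 12.51, and Tmod3, a tropomodulin that caps actin filaments, 10.23, 10.48, 9.44 and 9.83. The median difference of the list was 0.56 from the empty-vector and 0.29 from the untreated array for the Mical3-labelled array, and 0.10 and -0.01 for the Mical2-labelled array.

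Enzymes that build selectin ligands were measured for all 17 genes of the list. None was called on the Mical2-labelled array, where 0.977% of all genes were called higher and 1.75% lower. On the Mical3-labelled array the share of all genes called higher was 1.38%. On the Mical3-labelled array, 2 were called higher, C1galt1, which makes the core of O-linked sugars (8.68, with 7.10 on the Mical2-labelled array, 7.47 on the empty-vector array and 7.58 in untreated cells), and Tpst2, which sulfates tyrosines of selectin ligands (10.53, with 9.66, 8.92 and 9.22). The other C1galt1 probe sets did not exceed both controls by 1. Between the vector and untreated arrays St3gal4, a sialyltransferase, was called higher (8.50 against 7.45), and Chst2, a sulfotransferase of L-selectin ligands (4.89 against 5.97), and Gcnt1, which branches O-linked sugars (6.65 against 8.53), lower. Over all genes, 3.26% were higher and 2.57% lower in that comparison. Chst2 at 6.34 on the Mical2-labelled array and 4.33 on the Mical3-labelled array was called higher between these, and C1galt1 lower. Over all genes, 3.81% were higher and 3.72% lower between the hairpin arrays. The other Chst2 probe sets lay below the floor throughout and did not show these differences. They gave 0.06 and -0.09 between the hairpin arrays, and 0.03 and -0.35 between the vector and untreated arrays. Medians of the list lay between -0.03 and 0.09 over the 6 pairs of arrays. They include 5 genes below the floor on every array, so no likeness of the arrays is read from them.

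Other selectin ligands were measured for 8 of 9 genes. Cd24a, a heavily glycosylated ligand of P-selectin in mice, read 12.45 on the Mical2-labelled array, 9.47 on the Mical3-labelled array, 10.61 on the empty-vector array and 11.80 in untreated cells. It was called lower on the Mical3-labelled array against both controls, lower on the empty-vector array than on the untreated array, and higher on the Mical2-labelled array than on the Mical3-labelled array. All 3 of its probe sets were highest on the Mical2-labelled and lowest on the Mical3-labelled array, but the others were 0.83 and 0.64 below the empty-vector array there, short of a call. Cd44, a hyaluronan receptor that also binds selectins, was called higher on the Mical3-labelled array (12.14, with 11.58, 11.06 and 10.98). Against both controls, 1.38% of all genes were called higher and 2.49% lower on that array. The share called lower on the vector than on the untreated array was 2.57%. The share called higher on the Mical2-labelled than on the Mical3-labelled array was 3.81%. Glycam1 and Madcam1, which carry L-selectin ligands in lymph node and mucosal venules, were below the floor throughout. No gene of the list was called on the Mical2-labelled array against both controls, and the list's medians there were -0.04 and 0.17. Those medians include 3 genes below the floor on every array, so no likeness of the arrays is read from them.

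Among 21 other molecules of leukocyte adhesion and passage, none was called on the Mical2-labelled array. Of all genes, 0.977% were called higher and 1.75% lower there. On the Mical3-labelled array, Mcam (7.90, with 6.73 on the Mical2-labelled array, 6.04 on the empty-vector array and 6.84 in untreated cells) was called higher and Alcam (7.69, with 8.67, 9.79 and 9.61) lower, with Alcam lower in 4 of its 5 probe sets and the other one below the floor. Both are immunoglobulin-family adhesion molecules. Of all genes, 1.38% were called higher and 2.49% lower on the Mical3-labelled array. Icam4, next to Icam1 in gene order, was called higher on the vector than on the untreated array (7.15 against 6.15), beside 3.26% of all genes. The Mical2-labelled array exceeded the Mical3-labelled array for Cd47 (12.83 against 11.77) and was below it for Mcam and for Nectin2 (8.67 against 9.70). In that comparison 3.81% of all genes were called higher and 3.72% lower. Icam2, Pecam1, Jam2, Cdh5, Aoc3 and Cd200 were below the floor on all arrays. The list's medians were 0.13 from the empty-vector and -0.03 from the untreated array for the Mical2-labelled array, and -0.25 and -0.12 for the Mical3-labelled array. They include the 6 genes below the floor, so no likeness of the arrays is read from them.

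The integrins that bind these molecules were read for 10 genes. The leukocyte subunits Itgal, Itgam, Itgax and Itga4 lay below the floor on all 4 arrays. Itgb1, shared by many cell types, was called lower on the vector than on the untreated array (9.56 against 10.70), and Itgb2, the leukocyte beta2 subunit, was called higher on the Mical2-labelled array than on the Mical3-labelled array (6.0 against 4.85). Over all genes, 2.57% were called lower in the former comparison and 3.81% higher in the latter. No integrin of the list was called on a hairpin array against both controls, and the list's medians lay between -0.04 and 0.12 over the 6 pairs. These medians include the 4 genes below the floor, so no likeness of the arrays is read from them.

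NF-kB components and outputs were read for 25 of 26 genes. On the Mical2-labelled array none was called higher and 2 lower, the inhibitor gene Nfkbie (7.89, with 9.70 on the Mical3-labelled array, 9.47 on the empty-vector array and 9.47 in untreated cells, and lower in both of its probe sets) and the chemokine gene Cxcl10 (11.29, with 12.52, 12.51 and 12.38). On the Mical3-labelled array, the interleukin-1 receptor gene Il1r1 (6.97, with 9.01, 8.32 and 8.10) and the chemokine gene Cxcl1 (8.42, with 10.49, 10.02 and 12.75) were called lower. On the empty-vector array Ikbkg (9.91 against 8.68 on the untreated array) and Ccl5 (13.08 against 11.44) were called higher and Cxcl1 and Il6 (6.71 against 8.68) lower. Between the Mical2-labelled array and the Mical3-labelled array, 3 genes were called higher and 4 lower, beside 3.81% and 3.72% of all genes. Against both controls, 1.75% of all genes were called lower on the Mical2-labelled array and 2.49% on the Mical3-labelled array. Between the vector and untreated arrays 3.26% were higher and 2.57% lower. The medians were -0.33 from the empty-vector and -0.22 from the untreated array for the Mical2-labelled array, and -0.18 and 0.03 for the Mical3-labelled array.

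Markers of other cells that carry these genes were set beside Cd34, Selp and Vcam1. Platelet and megakaryocyte markers, of which 5 were measured, had none called on a hairpin array against both controls and a sum of log2 levels of 30.6 on the Mical2-labelled array, 28.5 on the Mical3-labelled array, 30.0 on the empty-vector array and 30.7 in untreated cells. Pf4, their defining chemokine, read 6.54, 5.56, 6.22 and 6.32. Ppbp, another platelet chemokine, was called lower on the empty-vector than on the untreated array (4.12 against 5.75), beside 2.57% of all genes. Of 12 leukocyte markers, 5 lay below the floor on every array, among them Ptprc, the pan-leukocyte CD45 gene (3.72 to 3.94), and could not be called. None of the 12 was called on a hairpin array against both controls, and the sums were 63.2, 61.0, 65.4 and 62.3. Among them Cd68, a macrophage marker, was called higher on the empty-vector than on the untreated array (8.0 against 5.93), and Itgb2 higher on the Mical2-labelled than on the Mical3-labelled array, as given above. The shares of all genes called higher in these comparisons were 3.26% and 3.81%. Of 9 measured markers of blood progenitors, which can express Cd34, none was called in any of the 4 comparisons, Kit lay between 4.05 and 4.48, and the sums were 54.2, 53.0, 55.0 and 54.4. Of the 14 endothelial markers, 8 lay below the floor on every array and could not be called, and none of the others was called in any of the 4 comparisons. Their median levels, 5.15, 5.22, 5.28 and 5.28, lay below the floor. These sums and medians include levels below the floor, so no likeness of the arrays is read from them.

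Fibroblast and mesenchymal markers moved with the arrays. Of the 11 measured, 7 were called lower and none higher on the vector than on the untreated array. Over all genes, 2.57% were lower and 3.26% higher. On the Mical3-labelled array 3 were called lower against both controls (Pdgfrb, Col1a2 and Dpt), beside 2.49% of all genes. The second Pdgfrb probe set differed there by only -0.38 from the empty-vector array, short of a call. Sums were 100.6 on the Mical2-labelled array, 75.6 on the Mical3-labelled array, 83.9 on the empty-vector array and 103.5 in untreated cells. Pdgfra, a receptor of stromal cells, read 9.88, 7.07, 6.16 and 10.40 in that order. This was the same division of arrays as for the main Vcam1 probe set. By main probe set, Pdgfrb, Col1a1, Col1a2, Col3a1 and Postn divided likewise. Others did not, since Dcn (12.27, 12.79, 10.52 and 12.36) was highest on the Mical3-labelled array and Dpt (6.13, 5.01, 7.05 and 6.66) on the empty-vector array. None of the 11 was called on the Mical2-labelled array against both controls. On the Mical2-labelled against the Mical3-labelled array, where Cd34 and Selp were also called higher, 6 of the 11 were called higher and none lower. These 6 were Pdgfra, Pdgfrb, Col1a2, Col3a1, Dpt and Postn. Over all genes, 3.81% were called higher and 3.72% lower in that comparison. The part of these markers in the levels of Cd34, Selp and Vcam1 was not tested.

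**Figure D5:**
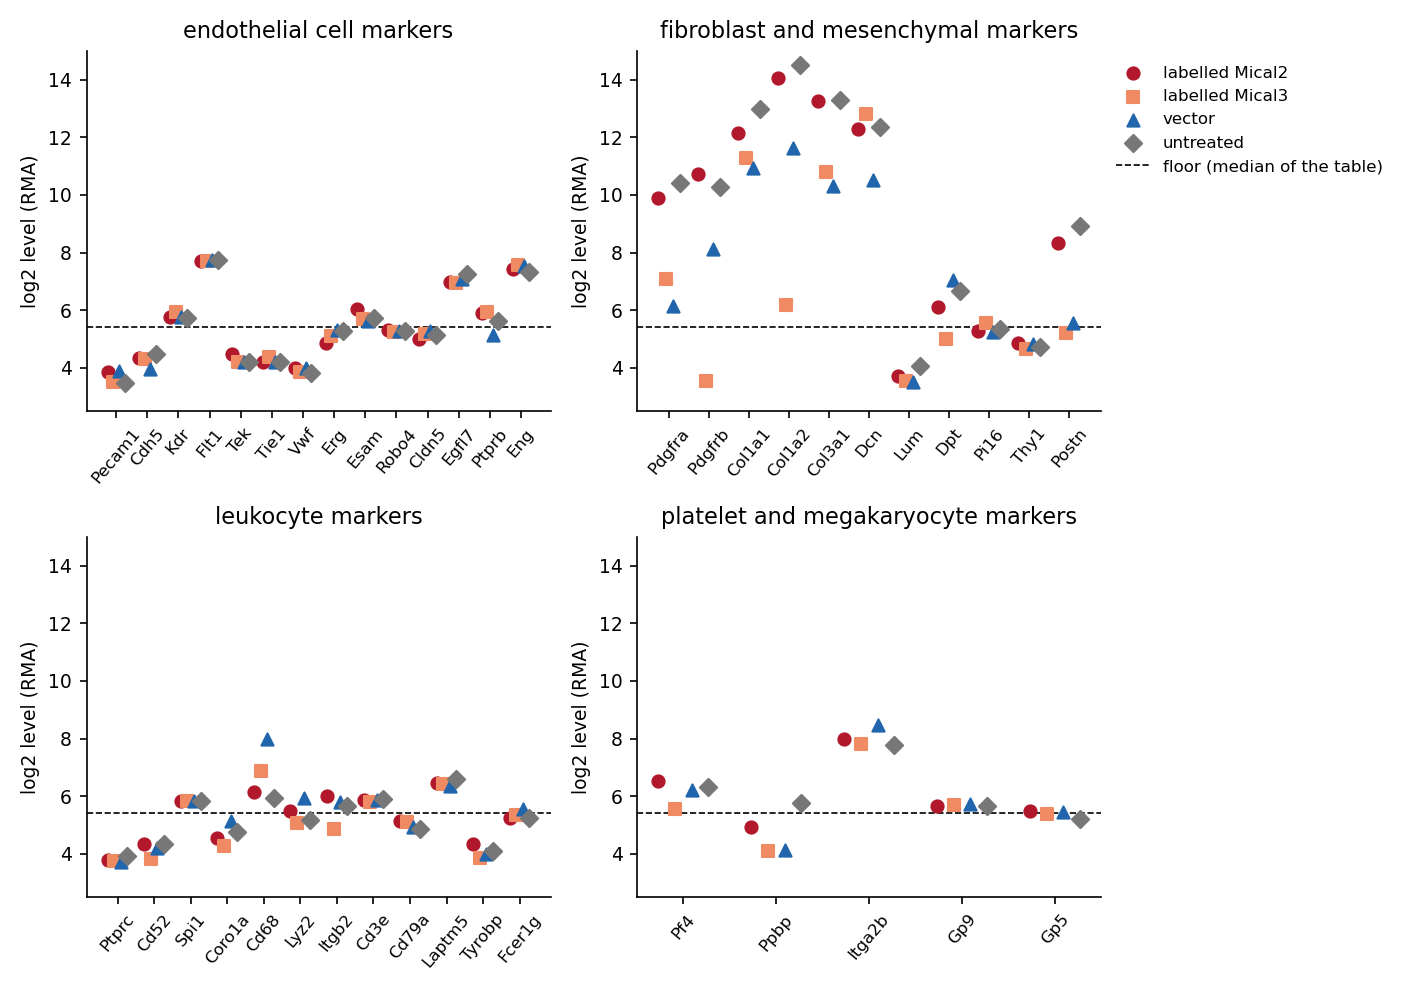
Log2 level (y axis) of markers of endothelial cells, fibroblasts, leukocytes and platelets (x axis) on the 4 arrays, with the floor dashed. Below the floor on every array lie 8 endothelial and 5 leukocyte markers, and no likeness of the arrays is read from these. Cd68 is highest on the empty-vector array (8.0), and Ppbp spans 1.66 over the arrays. Pdgfra, Col3a1 and Postn are lower on the Mical3-labelled array and the empty-vector array. Dcn is highest on the Mical3-labelled array (12.79) and Dpt on the empty-vector array (7.05).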

How the data were processed

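Total RNA of 4 groups was measured on 1 array per group, each a pool of 3 replicates per the labels. The deposited values are log2 levels, 1 per probe set and array, which the authors computed with RMA (background correction, quantile normalization, probe summary), per the submitters' processing notes. The version of RMA was not given in the sources used here. Values were used without further scaling. Of 45101 probe sets, 64 were controls, 34945 had 1 gene symbol, 932 had several and 9160 had none. Symbols were updated through Entrez identifiers against the RefSeq gene table of GRCm38.p6, which matched 34741 and left 204 with the annotation's own symbol. All 9 genes were matched. Promoter windows from RefSeq were present for 7 of them.

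No test was possible, so the rule of size (2-fold, floor 5.41) was run over all genes. The genes of the set, the 14 gene lists and the rule for named genes were chosen with earlier results of these data known. Genes named are the 9 themselves, list members that were called or spanned the widest range, the nearest 2 measured neighbours on each side, and the 3 closest profiles. Not every gene the rule allows is printed, and genes below the floor and defining markers were named after their values were seen. The probe-set spread is the standard deviation over 5198 genes of the difference between 2 probe sets, scaled to 1 probe set, and gives a lower bound on error. Alternatives covered the control array, fold, floor, choice of probe set, repeated quantile normalization and 16 added on the linear scale. Python 3.11.15, numpy 2.4.6, pandas 2.3.3 and matplotlib 3.10.9 were used.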

Additional observations from a re-analysis of the deposited data

Results flagged for a closer look

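By their main probe sets, Selp and Podxl lay on opposite sides of the controls on the hairpin arrays. For Selp the Mical2-labelled array lay above both control arrays and the Mical3-labelled array below them, with a log2 difference of 2.55 between the hairpin arrays. The Mical3-labelled array differed by only -0.23 from the empty-vector array, within the probe-set spread of 0.36. The other Selp probe sets put it above the empty-vector array, by 0.21 and 0.17, and gave 1.03 and 1.35 between the hairpin arrays. For Podxl the Mical2-labelled array lay below both controls and the Mical3-labelled array above them, with a difference of -2.06. The second Podxl probe set put the Mical2-labelled array above both controls, by 0.28 and 0.08, and gave -0.59 between the hairpin arrays. With 1 array per group these differences were not tested.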

How the results depend on the processing

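Of 40 recounts of called genes of the set under the alternatives, 37 stayed within 1.5 times the count reported. Cd34 and Selp were called higher on the Mical2-labelled array under all 11 alternatives. Under these, between 0.928% and 10.7% of all genes were called there in either direction. Cd34 has 1 probe set, so the alternatives in choice of probe set could not change its reading. For Selp, highest variance and the omission of probe sets open to cross-hybridisation both returned the main probe set, again with 2.32 and 1.98. These alternatives therefore add nothing for Selp. None of the alternatives used its second probe set alone, which stood only 0.41 above the untreated array, short of a call. When the empty-vector array alone served as control, 1 gene (Podxl, higher) was called on the Mical3-labelled array in place of 0. Over all genes, 11.8% of 11914 were called in either direction under that setting. Between the vector and untreated arrays, where 0 genes were called, a 1.5-fold rule called 2 (Podxl and Vcam1, lower), and the probe set with the highest variance called 1 (Vcam1, lower). Over all genes, the former setting called 17.6% of 11849 and the latter 7.89% of 10894 in either direction. Podxl was also called lower on the Mical2-labelled array with the untreated array as the only control or with 1.5-fold. These settings called 3.89% of 11906 and 8.11% of 12072 genes in either direction. Nothing about the set is read from these added calls. Among recomputed differences of single genes, 250 moved by no more than the probe-set spread and 14 by more, and no called one turned its sign. For the 5 genes with 1 probe set, another choice of probe set returns the same value, so part of the 250 was fixed in advance. With the mean of probe sets, Podxl on the Mical2-labelled array differed by -0.19 from the empty-vector array and -0.75 from the untreated array, and Selp by 1.69 and 1.09. With 16 added on the linear scale Cd34 differed by 5.16 and 4.89. No paired analysis was possible because each group has 1 array. Levels below 5.41 limit what can be said of Podxl2, Emcn, Sele and Icam1.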

Other observations

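Transcription factors of endothelial and blood cells were read for 20 genes. Klf2, a factor induced by flow in endothelium, was called higher on the Mical2-labelled array (8.56, with 8.11 on the Mical3-labelled array, 7.39 on the empty-vector array and 6.95 in untreated cells). On the Mical3-labelled array, Gata3 was called higher (7.92, with 6.65, 6.57 and 6.64) and Fli1, an ETS factor of vessels and platelets, lower (3.59, with 6.26, 5.78 and 5.71). Klf4 was called higher on the vector than on the untreated array (11.87 against 10.61). Between the Mical2-labelled array and the Mical3-labelled array, Fli1 and Elk3 (10.17 against 9.03) were higher, and Gata3 and Wt1 (9.47 against 10.60) lower. Of all genes, 3.81% were higher and 3.72% lower there. Against both controls, 0.977% were called higher on the Mical2-labelled array, and 1.38% higher and 2.49% lower on the Mical3-labelled array. On the vector against the untreated array 3.26% were higher. Erg, Tal1, Lyl1, Sox7, Sox18, Mef2c and Prox1 were below the floor throughout.

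Of 6 measured lymphatic markers, Mmrn1, encoding multimerin, was called higher and Flt4, the VEGF-C receptor gene, lower on each hairpin array against both controls. These comparisons share their control arrays, so they are not separate observations. Over all genes, 0.977% were called higher and 1.75% lower on the Mical2-labelled array, and 1.38% and 2.49% on the Mical3-labelled array. Mmrn1 read 6.67 on the Mical2-labelled array, 6.56 on the Mical3-labelled array, 4.47 on the empty-vector array and 4.82 in untreated cells, and its second probe set lay below the floor. Flt4 read 7.66, 7.55, 8.90 and 9.18 in that order, with differences under 1 in its second probe set. Prox1, Lyve1 and Reln were below the floor on all arrays. Of 7 epithelial markers Krt18 was called higher on the Mical3-labelled array (7.41, with 6.63, 4.84 and 5.85), and Krt8 (6.42 against 8.27) and Krt18 were called lower on the vector than on the untreated array. The shares of all genes called so were 1.38% in the former comparison and 2.57% in the latter.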
